A study of Mus musculus with 2 samples.

Results

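The dolichol synthesis genes Nus1, Dhdds, Srd5a3, Dolk, Dolpp1 and Dpagt1 were followed by gene symbol through single-cell RNA-seq of mouse liver. All 6 were among the 32285 genes of both libraries, and each symbol matched 1 gene. Control liver gave the WT library. Liver plus tumor gave the N-LKO library, from mice in which albumin-Cre had deleted the loxP-flanked NgBR allele, NgBR being the protein that Nus1 encodes. Per the study's methods, all mice were males on a C57BL6 background. They went onto the diet after a period on standard chow. Both groups had been fed for 16 weeks, on a diet that the titles call HFD and the treatment labels call WD. Each group was 1 library, so no value below has a replicate check, and no p-values were computed. Genotype, tumor tissue and library differed together and cannot be told apart between the groups.

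Dolichol is a long isoprenoid lipid of the endoplasmic reticulum on which the sugar chain for N-linked glycosylation is built. The cis-prenyltransferase that makes its polyprenol precursor from farnesyl diphosphate and isopentenyl diphosphate is a complex of NgBR and the catalytic subunit DHDDS. SRD5A3 acts in the reduction of polyprenol to dolichol, and DOLK phosphorylates dolichol. DOLPP1 recycles the dolichyl pyrophosphate left after glycan transfer, and DPAGT1 adds the first sugar phosphate to dolichol phosphate. Albumin-Cre acts in cells that express albumin, above all hepatocytes. Endothelial, stellate and blood-derived cells of the N-LKO liver are expected by design to carry the floxed allele unrecombined. Recombination was not measured in any class.

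Nus1 (ENSMUSG00000023068) lies at chr10:52417547-52440183 on the forward strand of GRCm38 and spans 22637 bp in 5 exons. Exon 1, the floxed exon, runs from 52417547 to 52418168 and holds 427 of the 891 coding bases. The last exon, at chr10:52436577-52440183, measures 3607 bp and includes the 3′ end, from which this kit primes, so a transcript of the deleted allele could still be counted. The start of the coding sequence that Cre removes, chr10:52417742-52418041, is printed here because the UMI counts do not read it; capitals mark the start codon.
Nus1 exon 1: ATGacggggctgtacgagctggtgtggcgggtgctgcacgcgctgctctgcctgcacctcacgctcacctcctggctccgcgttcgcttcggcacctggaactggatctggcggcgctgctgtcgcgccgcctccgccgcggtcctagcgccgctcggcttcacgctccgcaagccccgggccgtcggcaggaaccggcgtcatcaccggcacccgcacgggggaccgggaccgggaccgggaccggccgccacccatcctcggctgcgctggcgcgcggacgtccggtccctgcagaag
Dhdds (ENSMUSG00000012117) lies at chr4:133969028-134000918 on the reverse strand, and Srd5a3 (ENSMUSG00000029233) at chr5:76140271-76155504 on the forward strand. Dolk (ENSMUSG00000075419, chr2:30284231-30286334, reverse) and Dolpp1 (ENSMUSG00000026856, chr2:30392254-30400529, forward) lie 105919 bp apart. Dpagt1 (ENSMUSG00000032123) lies at chr9:44326019-44333900 on the forward strand. Some of the genes overlap a gene on the opposite strand, over 2104 bp for Dolk (Gm28038), 59 bp for Dolpp1 (Crat) and 1217 bp for Dpagt1 (Gm48853). Whether counting used the strand is not given in the sources used here, so reads in these overlaps are uncertain.

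The libraries held 85522287 UMIs over 100171 barcodes in WT and 87575064 UMIs over 90147 barcodes in N-LKO. Filtering left 18434 WT cells (median 1401 UMIs) and 19851 N-LKO cells (median 1454 UMIs), which formed 22 clusters, 17 of them matched to a class by marker genes. Cluster 4 scored highest for monocyte markers but was led by Il12b, Ccl22 and Ccr7, known from mature dendritic cells, and cluster 14, paired with cluster 13 by dendritic markers, had the granulocyte precursor genes Elane, Prtn3 and Mpo among its leading genes. Both classes are therefore called by cluster number. The study's own clustering used fewer cells than this. Hepatocyte-like cells numbered 9636 in WT and 2096 in N-LKO. Their hepatocyte markers summed to 52200 CPM (the UMIs of a gene scaled to the same total in every class) in WT and 49300 CPM in N-LKO, against 7140 to 32400 CPM in the nonparenchymal classes. Cholangiocyte markers in these cells summed to 71.2 (WT) and 525 CPM (N-LKO). Cells of tumor origin cannot be told apart from other hepatocyte-like cells here. A total of 2499 barcodes occurred in both libraries, 122 of them as cells kept in both.

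Nus1, the gene targeted by Cre, was read first, as a check of the labels. WT hepatocyte-like cells carried 1201 Nus1 UMIs, or 74.3 CPM with a counting interval of 70.2 to 78.7. N-LKO hepatocyte-like cells carried 179 UMIs, or 38.8 CPM (33.3 to 44.9). The N-LKO level was 52.2% of the WT level, a log2 ratio of −0.94 (−1.17 to −0.71). The intervals did not overlap, and the difference was larger than counting error. Nus1 UMIs were thus fewer in N-LKO hepatocyte-like cells but still present. After each cell was thinned to 1000 UMIs, 7.13% of WT hepatocyte-like cells (6.62 to 7.66) and 3.48% of N-LKO hepatocyte-like cells (2.74 to 4.36) held a Nus1 UMI. Before thinning the shares were 11.7% and 8.11%, at median depths of 1509 and 1939 UMIs. No class lacked Nus1, and the lowest thinned share among nonparenchymal classes of at least 200 cells in both libraries was 4.19%, in N-LKO T/NK-like cells.

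The same contrast appeared within the N-LKO library, where library and diet are shared. Nus1 in N-LKO hepatocyte-like cells lay below its level in endothelial-like cells by a log2 ratio of −1.28 (−1.55 to −1.01). It lay below macrophage-like cells by −1.15 (−1.41 to −0.91) and below hepatic stellate-like cells by −1.10 (−1.46 to −0.72). Within the WT library the corresponding ratios were −0.29 (−0.50 to −0.07), −0.10 (−0.31 to 0.12) and −0.08 (−0.33 to 0.20). Over all nonparenchymal classes together, cholangiocyte-like cells among them, Nus1 was at 77.9 (WT) and 72.6 CPM (N-LKO). Hepatocyte-like cells were thus further below these 3 classes in N-LKO than in WT. From T/NK-like cells they differed by −0.03 (−0.31 to 0.28) in WT and by −0.34 (−0.69 to 0.01) in N-LKO, both within counting error.

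Free RNA, released from broken cells and caught in every droplet, also contributes Nus1 UMIs. Barcodes under 500 UMIs held Nus1 at 57.8 (WT) and 37.4 CPM (N-LKO), and the latter lay inside the counting interval of N-LKO hepatocyte-like cells. Endothelial and macrophage markers, which hepatocytes do not express, stood in N-LKO hepatocyte-like cells at 0.336 to 0.436 times their CPM in those barcodes. At the median of these ratios, 37.8%, free RNA alone would give 14.1 of the 38.8 CPM of Nus1. In WT hepatocyte-like cells the same markers stood at 0.515 to 1.22 times, with a median of 85.2%, which would give 49.3 of 74.3 CPM. Subtracting these amounts moved the log2 ratio to −2.09, with 405 of the 1201 WT UMIs left. The estimate rests on barcodes under 500 UMIs, and no deposited barcode held fewer than 326 (WT) or 377 UMIs (N-LKO). Whether such barcodes hold only free RNA was not tested. The highest WT ratio, 1.22, is more than a share can be. The source of the Nus1 left in N-LKO hepatocyte-like cells was not tested.

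**Figure D1:**
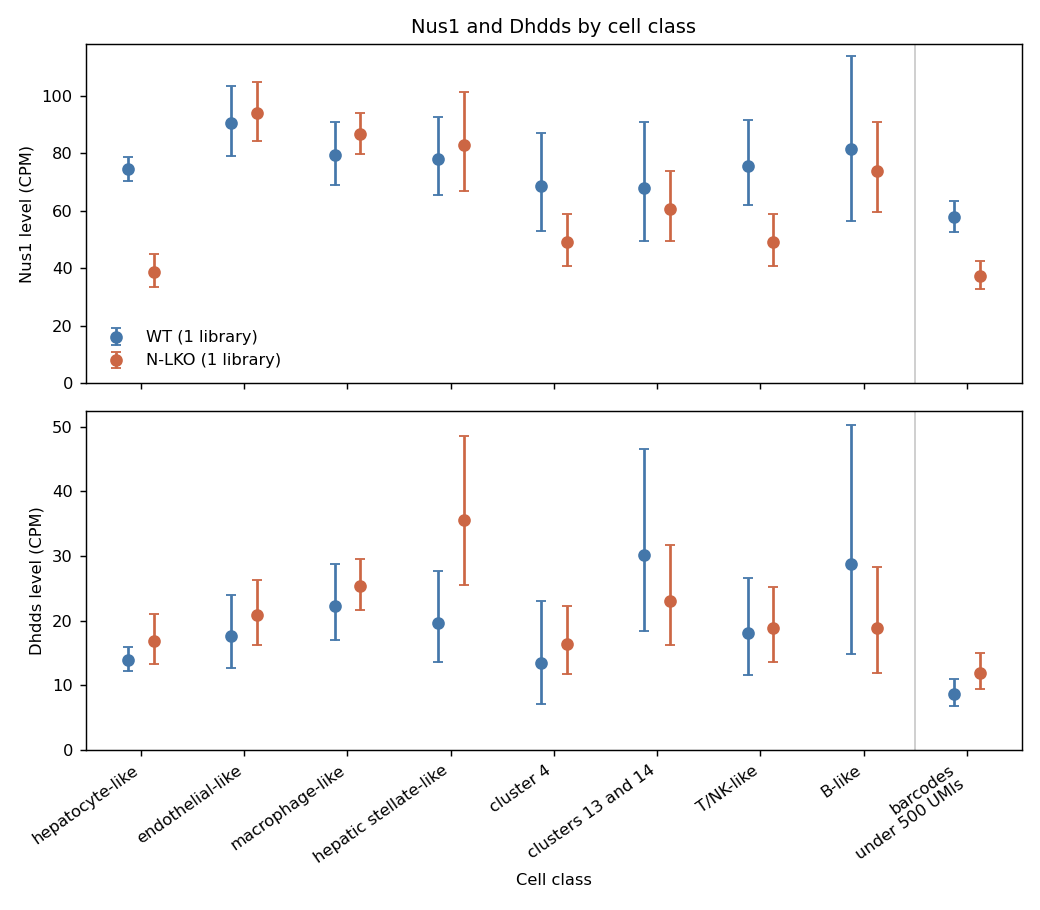
Nus1 (top) and Dhdds (bottom) in CPM by cell class, with barcodes under 500 UMIs at the right. Points are 1 library each (WT blue, N-LKO orange) and bars are exact 95% Poisson counting intervals. Nus1 intervals do not overlap between the libraries in hepatocyte-like cells, at 74.3 and 38.8 CPM, in T/NK-like cells and in barcodes under 500 UMIs, while the Dhdds intervals of the 2 libraries overlap in every class shown.

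Hepatocyte-like cells came from 3 clusters, each drawn mostly from 1 library. Cluster 0 (8332 WT and 96 N-LKO cells) held Nus1 at 75.9 CPM in its WT cells. Cluster 9 (1188 WT and 15 N-LKO cells) held it at 61.0 CPM, a log2 ratio of −0.31 (−0.64 to 0.00) to cluster 0. Cluster 5 (116 WT and 1985 N-LKO cells) held it at 38.7 CPM in its N-LKO cells, a log2 ratio of −0.97 (−1.21 to −0.74) to WT cluster 0. The 116 WT cells that fell in cluster 5 carried 14 Nus1 UMIs, or 62.2 CPM (34.0 to 104). Between the libraries within cluster 5 the log2 ratio was −0.73 (−1.47 to 0.22), so the direction was kept at a depth too low to separate the values.

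Malat1, a noncoding RNA retained in the nucleus, differed between these clusters, and the clusters richest in it were also low in Nus1. Malat1 stood at 8760 CPM in WT cluster 0, 1540 CPM in WT cluster 9 and 4540 CPM in N-LKO cluster 5. Clusters 17 and 6 were richer in Malat1 and stayed unnamed because their best marker score lay under the minimum of 0.2. That score was 0.167 in both, for monocyte markers. Hepatocyte markers came next, at 0.14 in cluster 17 and 0.072 in cluster 6. Cluster 17 (320 WT and 7 N-LKO cells) held it at 35700 CPM in WT, and cluster 6 (1 WT and 1989 N-LKO cells) at 20100 CPM in N-LKO. Nus1 in WT cluster 17 was at 38.3 CPM (24.8 to 56.5), a log2 ratio of −0.96 (−1.62 to −0.42) to WT cluster 0. The WT cells richest in Malat1 thus held Nus1 at a level like that of N-LKO cluster 5. In N-LKO cluster 6 Nus1 was at 27.8 CPM (22.7 to 33.6), a log2 ratio of −0.49 (−1.10 to 0.23) to WT cluster 17. Counting both clusters as hepatocyte-like gave 72.9 (WT) and 33.8 CPM (N-LKO), a log2 ratio of −1.11. The part of Malat1-rich droplets in the ratio over hepatocyte-like cells was not tested.

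**Figure D2:**
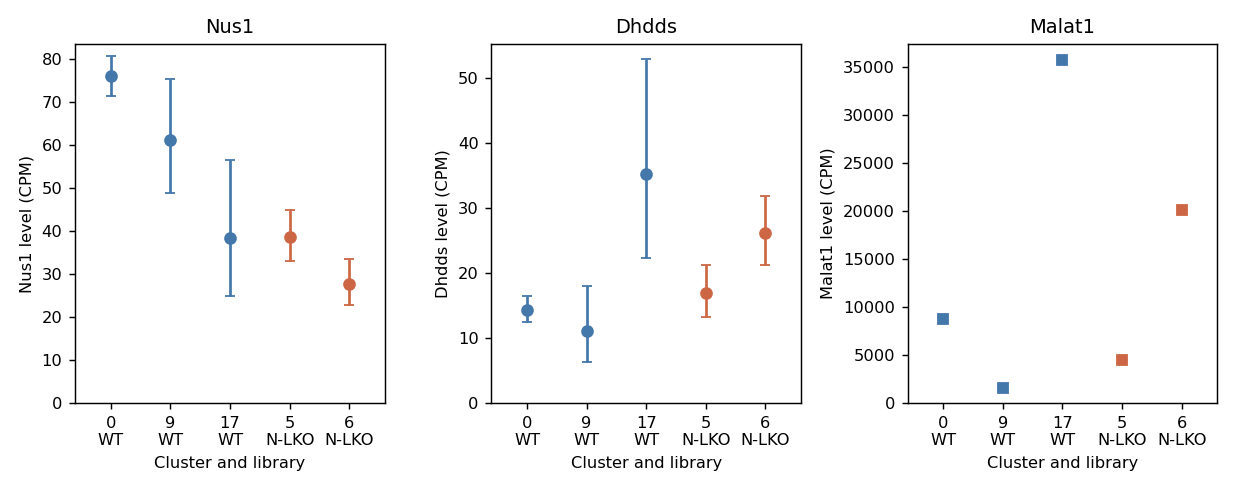
Nus1, Dhdds and Malat1 in CPM in the 3 hepatocyte-like clusters (0, 9 and 5) and the 2 unnamed Malat1-rich clusters (17 and 6), each in the library that contributed most of its cells (WT blue, N-LKO orange). Bars on Nus1 and Dhdds are exact 95% Poisson counting intervals. Nus1 is lowest and Dhdds highest in the Malat1-rich cluster of either library.

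The Nus1 difference was present at every depth and mitochondrial share examined. At 1000 to 1500 UMIs per cell, Nus1 was at 79.1 (WT) and 37.8 CPM (N-LKO) hepatocyte-like cells. At 1500 to 3000 UMIs it was at 71.4 and 42.1 CPM, and over 3000 UMIs at 73.4 and 34.5 CPM. The log2 ratios were −1.04, −0.76 and −1.08, each with an interval below 0. Cells with under 10%, 10 to 20% and 20 to 30% of UMIs from mitochondrial genes gave −1.26, −0.81 and −1.10, again with each interval below 0. Endothelial-like and macrophage-like cells showed no such separation in the same bins, apart from macrophage-like cells under 10% mitochondrial, where N-LKO was higher by 0.47 (0.05 to 0.89).

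**Figure D3:**
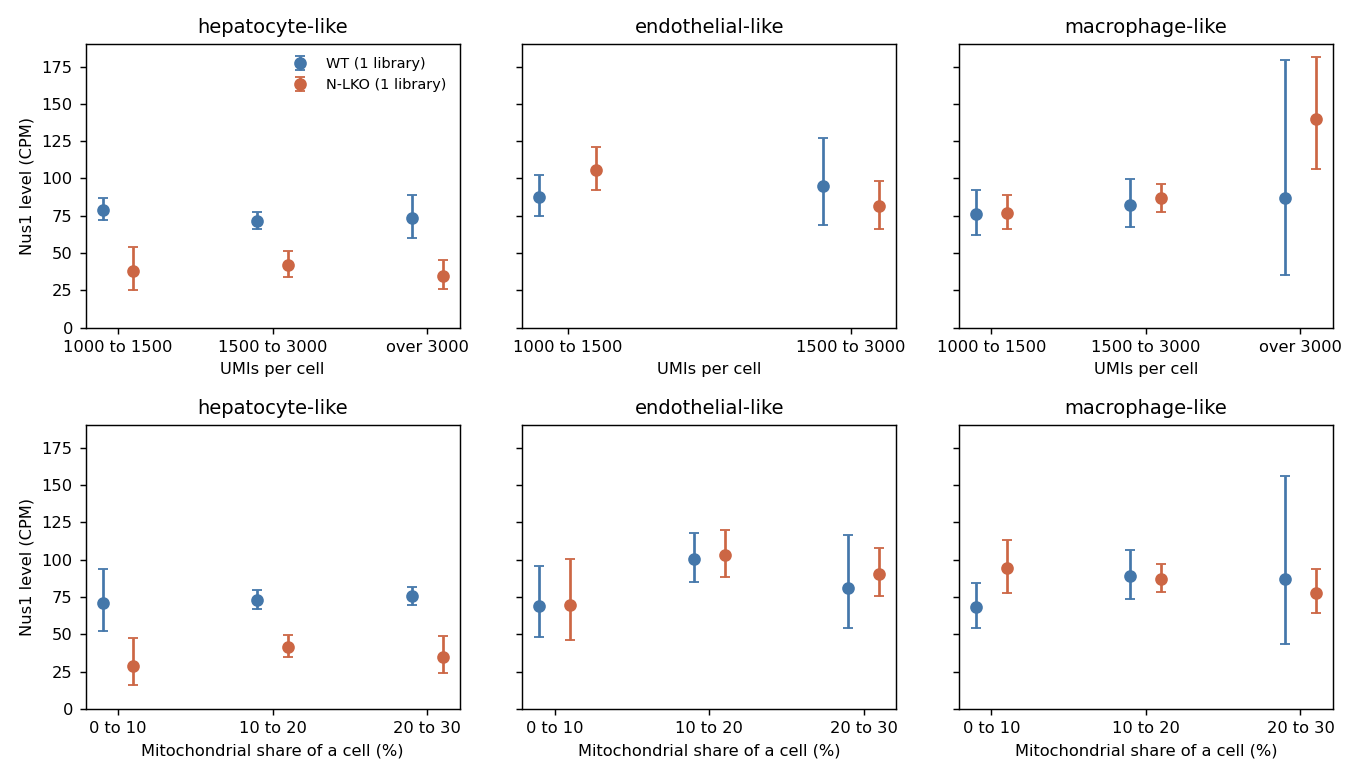
Nus1 in CPM by UMIs per cell (top row) and by mitochondrial share of a cell in percent (bottom row) in hepatocyte-like, endothelial-like and macrophage-like cells. Points are 1 library each (WT blue, N-LKO orange) with exact 95% Poisson counting intervals, and bins with under 20 cells in a library are left out. N-LKO hepatocyte-like cells lie between 28.8 and 42.1 CPM in all 6 bins, below the WT cells of the same bin.

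The next comparison set Nus1 in the nonparenchymal classes beside that in hepatocytes. In WT, Nus1 ranged from 90.6 CPM in endothelial-like cells, through 81.5 in B-like, 79.3 in macrophage-like, 78.1 in hepatic stellate-like and 75.7 in T/NK-like cells, to 68.5 in cluster 4 and 67.8 CPM in clusters 13 and 14. Neighbours in this order had overlapping intervals, and hepatocyte-like cells fell within it. In N-LKO the order was endothelial-like (94.0 CPM), macrophage-like (86.5), hepatic stellate-like (82.8), B-like (73.8), clusters 13 and 14 (60.7), cluster 4 (49.2) and T/NK-like cells (49.1). Hepatocyte-like cells came last in N-LKO, and neighbours overlapped there too.

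Between the libraries, Nus1 differed by less than counting error in 5 of these 7 classes. The log2 ratios were 0.05 (−0.20 to 0.31) in endothelial-like, 0.12 (−0.11 to 0.36) in macrophage-like and 0.09 (−0.31 to 0.48) in hepatic stellate-like cells. They were −0.17 (−0.68 to 0.38) in clusters 13 and 14 and −0.16 (−0.73 to 0.47) in B-like cells. Nus1 was lower in N-LKO T/NK-like cells, at −0.62 (−1.02 to −0.23), with 105 UMIs in WT and 115 in N-LKO. It was also lower in the N-LKO cells of cluster 4, by −0.48 (−0.92 to −0.02) from 66 and 120 UMIs. T and NK cells do not express albumin, whose promoter drives Cre, but recombination was not measured and the cause of their difference was not tested. In T/NK-like cells the difference was −1.12 (−1.68 to −0.59) at 1000 to 1500 UMIs per cell and −0.20 (−0.91 to 0.59) at 1500 to 3000 UMIs. The markers of this class also moved, with T markers at 1300 (WT) and 695 CPM (N-LKO) and macrophage markers at 387 and 792 CPM. Their part in the Nus1 difference was not tested. In cluster 4 the sign depended on the mitochondrial share, at 1.09 (0.10 to 2.11) under 10% and −0.82 (−1.40 to −0.23) at 10 to 20%. With hepatocyte markers giving the share of free RNA (53.1% in WT and 49.0% in N-LKO), subtraction left −0.67 in T/NK-like cells.

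Dhdds encodes the catalytic partner of NgBR. In hepatocyte-like cells it was at 13.9 (WT, 225 UMIs, 12.2 to 15.9) and 16.9 CPM (N-LKO, 78 UMIs, 13.4 to 21.1). The ratio between the libraries was 0.29 (−0.11 to 0.66) on the log2 scale, a difference within counting error. Its direction depended on the processing, at −1.14 with free RNA subtracted, where Nus1 was at −2.09, and at −0.16 with hepatocytes chosen by marker UMIs. Within each library, hepatocyte-like cells held less Dhdds than macrophage-like cells, by −0.69 (−1.10 to −0.25) in WT and −0.58 (−0.99 to −0.19) in N-LKO. Dhdds was higher in the Malat1-rich clusters, at 35.2 CPM in WT cluster 17 against 14.4 in WT cluster 0, a log2 ratio of 1.32 (0.60 to 1.91). In N-LKO it was at 26.2 CPM in cluster 6, above cluster 5 by a log2 ratio of 0.63 (0.18 to 1.08). In these Malat1-rich clusters Nus1 was thus lower and Dhdds higher, while in Malat1-poor WT cluster 9 the Dhdds ratio to cluster 0 was −0.34 (−1.21 to 0.36), on the same side of 0 as that of Nus1.

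In 6 of the 7 nonparenchymal classes the interval of the Dhdds ratio between the libraries included 0. The exception was hepatic stellate-like cells, with 19.7 (WT, 33 UMIs) and 35.6 CPM (N-LKO, 40 UMIs), a log2 ratio of 0.85 (0.16 to 1.57). It was largest in the cells with 10 to 20% mitochondrial UMIs, at 8.61 and 40.2 CPM, and was 0.88 (−0.38 to 1.93) under 10%. In hepatocyte-like cells with 20 to 30% mitochondrial UMIs, Dhdds was at 14.8 (WT) and 30.4 CPM (N-LKO), a ratio of 1.06 (0.39 to 1.64), against 0.11 (−0.45 to 0.63) at 10 to 20%.

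The remaining genes were counted in fewer UMIs. Srd5a3, of the reductase step, was at 7.49 CPM in WT hepatocyte-like cells (121 UMIs) and 12.1 CPM in N-LKO hepatocyte-like cells (56 UMIs), a log2 ratio of 0.70 (0.21 to 1.17). By UMIs per cell the ratio was 0.24 (−1.39 to 1.38) at 1000 to 1500 and 0.62 (−0.06 to 1.23) at 1500 to 3000. Over 3000 UMIs it was 2.44 (0.87 to 5.02), from 3 WT and 20 N-LKO UMIs. By mitochondrial share it was 1.33 (−0.49 to 3.6) under 10%, 0.80 (0.18 to 1.41) at 10 to 20% and −0.10 (−1.71 to 0.99) at 20 to 30%. Within the hepatocyte clusters Srd5a3 stood at 8.01 CPM in WT cluster 0, 2.77 CPM in WT cluster 9 and 12.4 CPM in N-LKO cluster 5. In macrophage-like cells it was also higher in N-LKO, at 15.6 and 23.3 CPM, a ratio of 0.57 (0.08 to 1.11). Srd5a3 in barcodes under 500 UMIs was itself higher in N-LKO, at 4.04 (WT) and 7.38 CPM (N-LKO). Subtracting free RNA turned the hepatocyte ratio to −0.86, so the direction of Srd5a3 depends on that step. In the other 6 nonparenchymal classes its interval included 0.

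Dolk, the kinase, was at 5.32 CPM in WT hepatocyte-like cells (86 UMIs) and 3.03 CPM in N-LKO hepatocyte-like cells (14 UMIs). The log2 ratio of −0.77 had an interval (−1.74 to 0.01) that just reached 0. It turned to 0.50 without the WT cells of clusters 0 and 9, which leaves 116 WT cells, and to 1.03 with hepatocytes chosen by marker UMIs. With free RNA subtracted it was −3.11. Dolk was detected in few cells, with 0.509% of thinned WT and 0.191% of thinned N-LKO hepatocyte-like cells holding a UMI. In endothelial-like cells the ratio was −0.72 (−1.83 to 0.37) and in macrophage-like cells 1.14 (−0.14 to 2.98), and in neither class was the difference detectable at this depth. In clusters 13 and 14 Dolk had 0 UMIs in WT, which allows up to 5.56 CPM, and 6 UMIs in N-LKO.

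Dolpp1, the phosphatase of the recycling step, differed by less than counting error in hepatocyte-like cells, at 5.26 and 6.29 CPM, a log2 ratio of 0.27 (−0.41 to 0.88). Its intervals included 0 in all 7 nonparenchymal classes, where it had between 1 and 30 UMIs per library. Dpagt1, the first enzyme of the lipid-linked oligosaccharide, was at 12.5 and 15.8 CPM in hepatocyte-like cells, a ratio of 0.35 (−0.07 to 0.73). Among the classes Dpagt1 was highest in endothelial-like cells in both libraries, at 38.3 (WT, 30.9 to 47.1) and 31.8 CPM (N-LKO, 26.2 to 38.4). It was higher in N-LKO macrophage-like cells, at 10.4 and 17.1 CPM, a ratio of 0.69 (0.11 to 1.37).

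**Figure D4:**
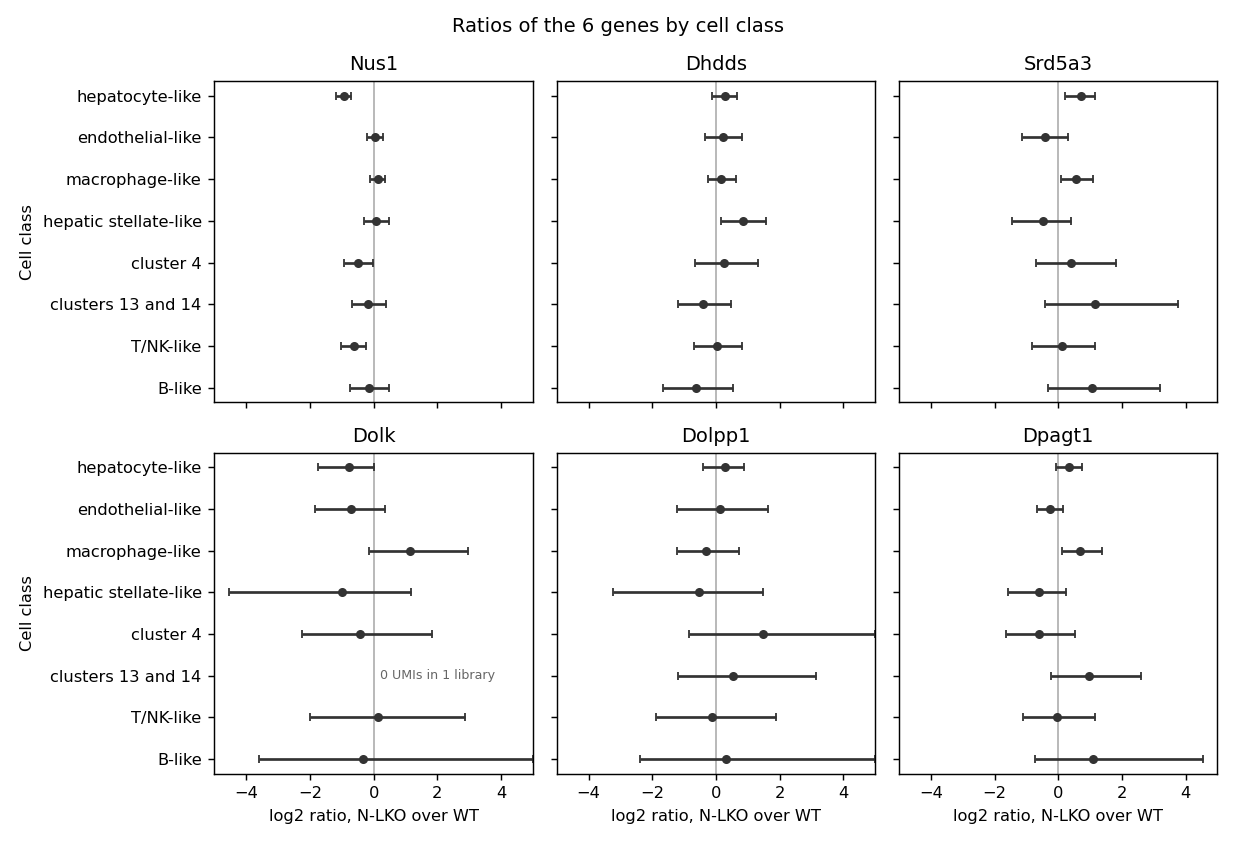
Log2 ratios of N-LKO over WT for the 6 genes (panels) in the 8 classes with at least 200 cells in both libraries. Points are single ratios of 2 libraries and bars are exact 95% conditional binomial counting intervals, cut off at the axis limits of −5 and 5; Dolk in clusters 13 and 14 had 0 WT UMIs and is not drawn. Nus1 in hepatocyte-like cells is the lowest Nus1 point, at −0.94, and Srd5a3 in the same cells lies at 0.70.

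Of the 6 genes in hepatocyte-like cells, 2 were past 1.5-fold lower in N-LKO (Nus1 and Dolk), against 7.96% of the 9889 genes that reached 5 CPM in either library. For the other direction, 1 gene (Srd5a3) was past 1.5-fold higher, against 14.5% of those genes. The median log2 ratio was 0.29 over the 5 genes other than Nus1 and 0.08 over all expressed genes. All 6 passed the minimum of 5 CPM there. In endothelial-like cells, 1 gene was past 1.5-fold lower (Dolk; 17.2% of all genes) and 0 were higher (22.9%). In macrophage-like cells 0 were lower (14.4%) and 2 were higher (Dolk and Dpagt1; 10.4%), with Srd5a3 just inside 1.5-fold. Dolk stayed under 5 CPM there. Cluster 4 had 1 gene lower (Dpagt1; 20.5%) and 1 higher (Dolpp1, under 5 CPM; 18.3%). Clusters 13 and 14 had 0 lower (17.5%) and 3 higher (Srd5a3, Dpagt1 and, under 5 CPM, Dolk; 20.4%). Apart from Nus1 and Dhdds, the genes had at most 31 UMIs per library in these clusters. T/NK-like cells had 1 lower (Nus1; 19.2%) and 0 higher (26.8%), and B-like cells had 1 lower (Dhdds; 22.7%) and 2 higher (Srd5a3 and Dpagt1; 25.2%). Hepatic stellate-like cells had 2 lower (Dpagt1 and, under 5 CPM, Dolk; 22.0%) and 1 higher (Dhdds; 18.8%). The median of the 5 genes other than Nus1 changed sign between classes, from −0.52 in hepatic stellate-like and −0.27 in endothelial-like cells to 0.57 in macrophage-like and 0.97 in clusters 13 and 14. Most ratios behind these medians lay within counting error, so their signs do not show whether the genes moved as 1 group.

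Genes that supply or use dolichol were then examined in hepatocyte-like cells, in lists of 48 genes of which 40 passed 5 CPM. Dhrsx, listed for the reductase pathway, had no row with that symbol and was not analysed here. Of the 40 genes, 8 were past 1.5-fold higher and 1 was past 1.5-fold lower, beside 14.5% and 7.96% of all genes. The oligosaccharyltransferase, the complex that moves the finished glycan to nascent protein, had 10 of 12 genes above 0, a median of 0.31 and 3 genes past 1.5-fold higher. With free RNA subtracted that median turned to −1.28. The 3 genes were Dad1, Krtcap2 and Ostc, which also had the highest ratios of the 40 genes. Dad1 was at 97.1 (WT) and 211.8 CPM (N-LKO), a log2 ratio of 1.13 (1.01 to 1.24). Krtcap2 was at 122.9 and 256.8 CPM (1.06, 0.96 to 1.17), and Ostc at 57.8 and 109.5 CPM (0.92, 0.76 to 1.08). Among subunits named after their values were seen, the small Tmem258 and Ost4 were at 0.57 (0.43 to 0.71) and −0.03 (−0.17 to 0.10), and the catalytic Stt3a and Stt3b at 0.20 (0.01 to 0.38) and 0.05 (−0.12 to 0.22).

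The 5 genes for dolichol-phosphate sugar donors all lay above 0, with a median of 0.44 and 1 past 1.5-fold. The lipid-linked oligosaccharide list, the transferases that build the glycan, was split, with 5 of 11 genes above 0 and a median of −0.04. The mannose users, which take mannose from dolichol phosphate, had a median of −0.33, with 1 of 4 genes above 0. Dpy19l3, a C-mannosyltransferase of this list, had the lowest ratio of the 40 genes, at 12.8 (WT, 207 UMIs) and 2.82 CPM (N-LKO, 13 UMIs), a log2 ratio of −2.13 (−3.12 to −1.38). Pigb, which adds mannose to the glycosylphosphatidylinositol anchor, was at −0.56 (−1.23 to 0.03). The isoprenoid supply list, whose enzymes make the building blocks of cis-prenyltransferase, had a median of −0.09 over 4 genes. Fdps, the farnesyl diphosphate synthase that feeds cis-prenyltransferase, was named after its values were seen; it was at 0.80 (0.55 to 1.03). The 2 genes of the competing branches had a median of −0.20. The 2 NgBR partners, also named after their values were seen, were both higher, Rtn4 by 0.83 (0.71 to 0.94) and Npc2 by 0.62 (0.45 to 0.79). Most of these medians moved with the processing. With free RNA subtracted they were 0.64 for the sugar donors, −1.47 for the lipid-linked oligosaccharide list, −2.33 for the mannose users, 3.61 for isoprenoid supply, −1.08 for the competing branches and 1.82 for the partners. No median of all genes is given for that setting. Counts that subtraction took below 0 were set to 0, and the UMIs left for each list gene are not given. The subtracted medians may therefore rest on few UMIs. A further setting left out the WT cells of clusters 0 and 9, which leaves 116 WT cells. The list medians there were −0.26, −0.16, −0.94, −1.30, 1.34 and 0.30 in the same order. The sign, though not the size, was thus kept under both settings by the lipid-linked oligosaccharide list, the mannose users and the partners. The first turned to 0.08 with no minimum of 5 CPM.

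**Figure D5:**
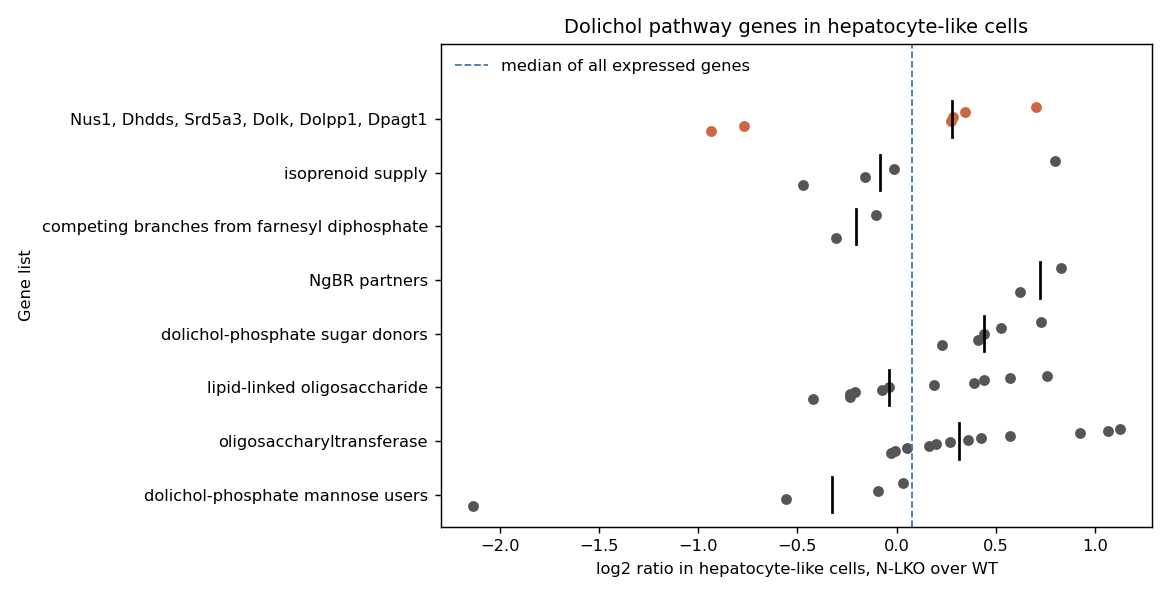
Log2 ratios of N-LKO over WT in hepatocyte-like cells for the 6 genes (orange) and for the listed pathway genes that reached 5 CPM in either library (grey, 1 point a gene). Black bars are list medians, and the dashed line is the median of all expressed genes, 0.08. Nus1 and Dolk lie at the left of the 6 genes, Dpy19l3 is the point at −2.13, and 3 oligosaccharyltransferase subunits lie near 1.

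In hepatocyte-like cells the shorter genes had higher ratios over all expressed genes, with medians of 0.25 in the shortest of 5 equal groups by genomic span and 0.01 in the longest. Dad1, Krtcap2 and Ostc span 18626, 3941 and 13533 bp, and Dpy19l3 spans 69290 bp. Nus1 and Dhdds lie in the same span group, with a median of 0.04. In the nonparenchymal classes the relation ran the other way, from −0.39 to 0.46 in endothelial-like cells, for example. There the isoprenoid supply list had medians between −1.32 in T/NK-like cells and −0.35 in hepatic stellate-like cells. All of its measured genes were past 1.5-fold lower in cluster 4 (5 of 5; 20.5% of all genes), clusters 13 and 14 (4 of 4; 17.5%) and T/NK-like cells (4 of 4; 19.2%). Hepatocyte markers, used here to estimate free RNA, were also lower in these classes in N-LKO. They stood at 24200 (WT) and 10400 CPM (N-LKO) in cluster 4, 20400 and 8060 CPM in clusters 13 and 14, and 26600 and 11100 CPM in T/NK-like cells. The parts of span and of free RNA in these values were not tested.

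Across 8 classes in 2 libraries, 16 points that share library and depth, the genes whose log2(CPM + 1) followed Nus1 most closely were Arfgap1 (Pearson r = 0.83), Ifit3b (0.78), Anapc15 (0.77), Tmem94 (0.76) and Ppp5c (0.76), of 13846 genes ranked. For Dhdds they were Recql5 (0.82), Ascc2 (0.81), Dvl2 (0.80), Ak8 (0.78) and Morc2a (0.78). Nus1 and Dhdds themselves had r = 0.33, and no other of the 6 genes was among the 5 closest to either. These values describe the 16 points and carry no p.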

How the data were processed

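Liver cells were released by collagenase perfusion, mixed (hepatocytes with nonparenchymal cells, plus tumor cells for N-LKO) and loaded on a droplet 3′ kit. The values the authors deposited are raw UMI counts per gene and barcode from Cell Ranger 7.1.0 (per the file headers), with no normalization. The submitters' processing notes name mm9, and whether intronic reads were counted is not given in the sources used here. Coordinates come from matching gene IDs to GENCODE M21 (GRCm38), where 32158 of 32285 were found. The genes and lists were chosen with earlier results of these data known.

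Barcodes with at least 1000 UMIs, 400 genes and at most 30% mitochondrial UMIs were kept, and those with a Scrublet score over 0.25 were removed as doublets (8.55% in WT and 10.6% in N-LKO; scanpy 1.11.5). Both libraries were clustered together with 30 principal components and leidenalg 0.10.2 at resolution 0.3. Clusters were matched to 14 marker lists, when at least 3 markers were raised 2-fold and no unrelated list reached 60% of the score. The scoring thresholds and the estimate of free RNA, from endothelial and macrophage markers for hepatocytes and hepatocyte markers for other classes, were settled after values were seen. The authors' cell annotation was not used, so a difference from the study may come from the rebuilt names. UMIs were summed per class and library. Each sum had 0.5 UMI added before the log2 ratio of N-LKO to WT was taken. Poisson, conditional binomial and Clopper-Pearson intervals are exact, at 95%, and cover counting error only. The ratio code was tested on simulated data. Named genes are the 6 in every class, the 3 highest and 3 lowest list genes in hepatocyte-like cells, and the 5 closest by r to Nus1 and to Dhdds; 1 of the list genes is not reported here.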

Additional observations from a re-analysis of the deposited data

How the results depend on the processing

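Nus1 in hepatocyte-like cells stayed below 0 under all 14 alternatives, read by sign alone because no counting interval was computed for them. Within cluster 5, which holds the 116 WT cells left without clusters 0 and 9, the counting interval (−1.47 to 0.22) included 0. The Nus1 log2 ratio moved to −2.09 with free RNA subtracted. It moved to −0.45 when hepatocytes were chosen by marker UMIs without clusters (1347 WT and 361 N-LKO cells, 132 and 25 Nus1 UMIs). Otherwise it ran from −1.11 to −0.73. Those 2 settings also took Dhdds to −1.14 and −0.16. Leaving out clusters 0 and 9 in WT, by their Malat1 levels, took Dhdds to 2.94. That setting drops 8332 and 1188 WT cells and leaves 116 WT hepatocyte-like cells with 0 Dhdds UMIs. With free RNA subtracted, all 6 genes were past 1.5-fold lower, in place of 3 past 1.5-fold in either direction, and Srd5a3 turned to −0.86. That step took 85.2% of WT and 37.8% of N-LKO UMIs in hepatocyte-like cells. No share of all genes is given for it, so that count has no background beside it. Dolk turned to 0.50 without clusters 0 and 9 in WT and to 1.03 by marker UMIs. With no minimum of 5 CPM, 12.3% of all genes were past 1.5-fold lower and 26.0% higher. Subtraction took the 5 genes other than Nus1 below 0, so the directions of Dhdds, Srd5a3, Dolpp1 and Dpagt1 rest on counts as deposited. Nus1 in cluster 4 turned to 0.037 with a minimum of 2000 UMIs and to 0.74 with a mitochondrial limit of 10%. Both settings held fewer cells of this class, and the cause of the change was not tested. Counting the Malat1-rich clusters as hepatocyte-like was added after seeing the data. No paired analysis was possible because each group had 1 library. Dolk, Dolpp1 and the smaller classes are limited by depth.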
